A study of Mus musculus with 6 samples.

Results

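The genes for the constant regions of the antibody chains and for the J chain were followed in RNA of whole lungs that carried 4T1 tumour cells. KO lungs came from Balb/c mice that had received 250000 PD-L1 knockout 4T1 cells through the tail vein, and WT lungs from Balb/c mice that had received the same number of unmodified 4T1 cells. 4T1 is a mouse mammary carcinoma line that colonises the lung. Both groups of 3 libraries were taken 7 days after injection, from lungs perfused with 20 mL of PBS, and no label marks the recipient mice of either group as edited. The age and sex of the mice, whether the knockout line is 1 clone, and whether each library is 1 animal were not given in the sources used here. Members were taken by Ensembl identifier from a list of 10 genes, namely Ighm, Ighg1, Ighg2b, Ighg2c, Ighg3, Igha, Igkc, Iglc1, Iglc2 and Jchain, and 9 of them were found among the 35275 gene rows of each count table. Iglc1 was not analysed here.

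An antibody pairs heavy chains with light chains. The constant region of the heavy chain sets the class (IgM from Ighm, IgG from the Ighg genes, IgA from Igha), and the light chain is of the kappa type (Igkc) or of the lambda type (the Iglc genes). A naive B cell carries IgM on its surface, and an activated one can switch to another class by joining its variable region to a constant gene further along the locus. Plasma cells secrete antibody in bulk, and the J chain links IgM or IgA units into polymers, which the receptor encoded by Pigr carries across epithelia. In messages for antibody chains, constant regions are spliced to variable regions whose promoters drive them. A count on a constant gene does not tell which variable region, if any, it belongs to. Membrane and secreted forms share nearly all of the constant exons and were not separated by these counts.

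The constant genes resemble each other, which matters for counts of short reads. The starts of the first constant exon of the 4 IgG genes are printed to show how far the subclasses can be told apart. All lie on the minus strand of chromosome 12 of GRCm38, and the 60 bases span chr12:113330464-113330523 for Ighg1, chr12:113307874-113307933 for Ighg2b, chr12:113288873-113288932 for Ighg2c and chr12:113361173-113361232 for Ighg3. Capitals mark the 22 positions at which the 4 genes are not all alike.
Ighg1: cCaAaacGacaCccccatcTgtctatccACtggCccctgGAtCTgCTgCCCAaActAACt
Ighg2b: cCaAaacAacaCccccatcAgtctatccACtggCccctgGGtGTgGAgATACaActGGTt
Ighg2c: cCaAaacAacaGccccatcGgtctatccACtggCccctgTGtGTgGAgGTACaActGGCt
Ighg3: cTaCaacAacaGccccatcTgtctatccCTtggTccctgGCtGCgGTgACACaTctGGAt
Ighg2b and Ighg2c shared 55 of the 60 bases here, and Ighg1 and Ighg3 shared 42.

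The lambda constant exons are shown in the same way, because the row for Iglc2 has a close relative in Iglc3, which was not analysed here. They lie on the minus strand of chromosome 16 at chr16:19062012-19062071 for Iglc1, chr16:19198793-19198852 for Iglc2 and chr16:19065622-19065681 for Iglc3. Capitals mark the 13 positions at which the 3 genes are not all alike.
Iglc1: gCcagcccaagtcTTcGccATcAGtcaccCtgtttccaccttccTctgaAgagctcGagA
Iglc2: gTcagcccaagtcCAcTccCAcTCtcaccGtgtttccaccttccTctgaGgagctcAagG
Iglc3: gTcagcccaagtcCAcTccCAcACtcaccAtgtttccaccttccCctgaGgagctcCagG
Iglc2 and Iglc3 shared 56 of the 60 bases. Over the annotated constant region transcripts, 5.49% of the 50-base windows of Ighg2c, 4.15% of those of Ighg2b, 1.58% of those of Ighg3, 0.393% of those of Ighg1 and 7.65% of those of Iglc2 occurred in another gene. For Ighm, Igha, Igkc and Jchain this was 0%, and with windows of 100 bases it was 0% for all 10 genes. The sequences are those of the C57BL/6 reference genome. Balb/c mice carry an Ighg2a gene in the place of Ighg2c, so counts on the Ighg2c row are counts of reads that fitted that reference gene and cannot be read as IgG2c.

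Libraries held 15222408 to 16469780 counts in KO lungs and 14711459 to 16932114 counts in WT lungs, and the 9 members took 0.0409% to 0.0462% of the counts in KO lungs and 0.0189% to 0.0260% in WT lungs. The targeted gene Cd274 had 1514, 3013 and 4929 counts in KO lungs and 910, 912 and 1132 counts in WT lungs. Host cells keep Cd274 and an edited allele can still give reads, so the knockout of the injected cells could not be checked from it. Its log2 difference was 1.65 ± 0.42 (edgeR adjusted p = 0.161).

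RNA of the kappa light chain and of the IgM heavy chain was higher in KO lungs, with mean CPM 2.16 times that in WT lungs for Igkc and 2.04 times for Ighm, and no member fell. Of the 7 members tested, Igkc and Ighm rose and 5 did not pass the test (edgeR quasi-likelihood test, adjusted p threshold 0.05). A rise was called for 1.12% of the 15191 genes tested and a fall for 0.336%. The 0 members lower by edgeR were also 0 at an unadjusted p under 0.05, by DESeq2 and by limma-voom, while 4 were higher at an unadjusted edgeR p under 0.05, as were 8.29% of all genes tested. By DESeq2 and by limma-voom 3 members were higher, as were 2.44% and 1.01% of all genes. In 3 of the 7, Igkc, Ighm and Jchain, the lowest KO library exceeded the highest WT library, which held for 10.3% of all genes tested. All 7 had positive log2 fold changes, as did 7740 of the 15191 genes tested. The median of the 7 was 0.99, against 0.01 over all genes. Ighg2c and Ighg3 were too low for the filter on counts and were not tested. Since the RNA is that of a whole organ, a larger number of B lineage cells and a higher RNA content of each cell cannot be told apart.

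Igkc, the kappa constant region (chromosome 6, 70726435 to 70726966, plus strand), had 1812, 1851 and 2008 counts in KO replicates 1 to 3, against 680, 1058 and 885 counts in WT replicates 1 to 3. As CPM, counts scaled to a common library size by TMM, these were 117, 121 and 122 in KO lungs and 46.7, 62.1 and 58.1 in WT lungs. The KO libraries were nearly alike and far above the WT libraries. The means were 120.1 ± 3.07 CPM in KO lungs and 55.7 ± 7.97 CPM in WT lungs (SD, n = 3 each), and the log2 fold change was 1.11 with an SE of 0.12 (edgeR adjusted p = 0.00157). In what follows, the error given with ± after a log2 fold change or difference is its SE.

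Iglc2, the second light chain gene with a row (chromosome 16, 19198396 to 19200351), was much scarcer. It had 202, 93 and 70 counts in KO replicates 1 to 3, against 52, 52 and 86 counts in WT replicates 1 to 3. The groups overlapped, since KO replicate 3 lay below WT replicate 3, and KO replicate 1 stood above all others. Its log2 difference of 0.93 ± 0.41 missed the threshold (edgeR adjusted p = 0.311) and was 0.34 without KO replicate 1.

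Ighm, the constant region of IgM (chromosome 12, 113418558 to 113422730, minus strand), had 2641, 1949 and 3159 counts in KO replicates 1 to 3, against 1314, 1216 and 1196 counts in WT replicates 1 to 3. The lowest KO library, replicate 2, still lay well above the highest WT library, replicate 1. Ighm averaged 163.4 ± 32.9 CPM in KO lungs and 80.1 ± 9.56 CPM in WT lungs (SD, n = 3 each), a rise of 1.03 ± 0.15 on the log2 scale (SE; edgeR adjusted p = 0.00487).

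Jchain, whose product holds polymeric IgM and IgA together (chromosome 5, 88519809 to 88527891, minus strand), had 669, 746 and 1045 counts in KO replicates 1 to 3, against 202, 595 and 328 counts in WT replicates 1 to 3. The groups did not overlap, but the WT libraries were spread from 13.9 to 34.9 CPM, with replicate 2 highest. Means were 51.9 ± 10.6 CPM in KO lungs and 23.5 ± 10.7 CPM in WT lungs (SD, n = 3 each). The log2 difference of 1.14 ± 0.28 was close to that of Igkc but missed the threshold (edgeR adjusted p = 0.085). Without WT replicate 2 it was 1.55 and passed (edgeR adjusted p = 0.0297). It also passed by DESeq2 (adjusted p = 0.000942), by limma-voom (adjusted p = 0.036) and in edgeR with no filter on low counts (adjusted p = 8.29e-10). That last fit called 578 genes higher, against 170 in the fit reported. Igha passed in it too, although its groups overlapped.

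Igha, the constant region of the mucosal class IgA (chromosome 12, 113254830 to 113260236), had 1703, 1475 and 811 counts in KO replicates 1 to 3, against 497, 1425 and 631 counts in WT replicates 1 to 3. WT replicate 2 lay close to the upper KO libraries and KO replicate 3 below WT replicate 2, so the groups overlapped. It averaged 85.2 ± 31.7 CPM in KO lungs and 53.1 ± 26.7 CPM in WT lungs (SD, n = 3 each), and its log2 difference of 0.68 ± 0.45 missed the threshold (edgeR adjusted p = 0.561). The difference passed in edgeR with no filter on low counts (adjusted p = 9.31e-05) and in none of the other 13 alternative fits, and with 1 library left out it ranged from 0.44 without WT replicate 1 to 1.17 without WT replicate 2.

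**Figure D1:**
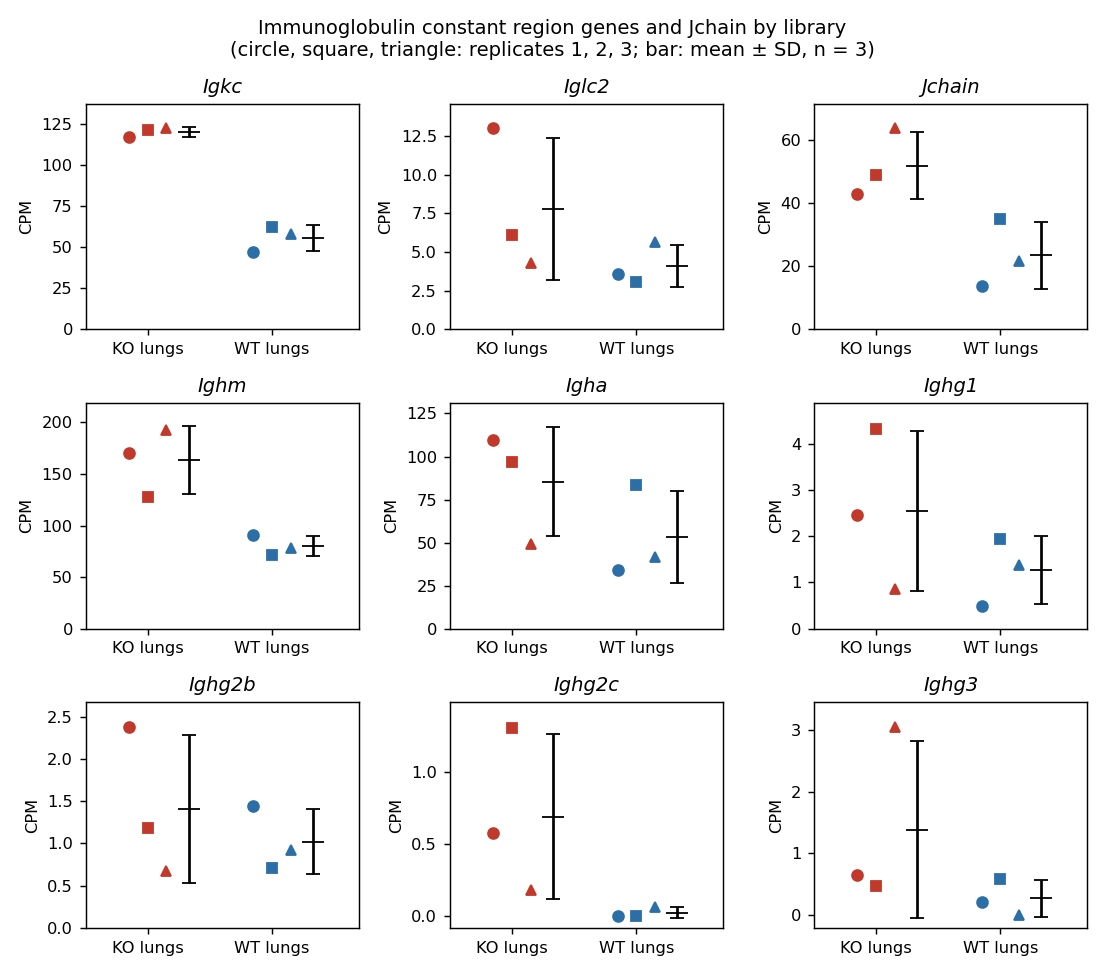
CPM of the 9 members in each library, with KO lungs left of WT lungs; points are libraries and the bar is the mean ± SD of 3. Igkc, Ighm and Jchain have all KO points above all WT points, as does Ighg2c at values of at most 1.31 CPM, and the other members overlap.

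The 4 IgG genes had at most 66 counts in any library and varied from library to library without a shared order. Ighg1 (chromosome 12, 113325240 to 113330523) had 38, 66 and 14 counts in KO lungs and 7, 33 and 21 counts in WT lungs. Ighg2b (113302965 to 113307933) had 37, 18 and 11 counts in KO lungs and 21, 12 and 14 counts in WT lungs. For both genes the groups overlapped, and neither passed, Ighg1 with a log2 difference of 0.99 ± 0.69 and Ighg2b with 0.46 ± 0.73 (edgeR adjusted p = 0.555 and 0.830). For Ighg2b the difference was -0.14 without KO replicate 1, and for Ighg1 it was 0.37 without KO replicate 2. Ighg3 (113356224 to 113361232) had 10, 7 and 50 counts in KO lungs and 3, 10 and 0 counts in WT lungs, so KO replicate 3 held most of its reads. Summed over libraries, Ighg3 had 67 counts in KO lungs and 13 in WT lungs, a ratio of 5.11 with a 95% interval of 2.80 to 10.1 for counting error only. Ighg2c (113285325 to 113288932) had 9, 20 and 3 counts in KO lungs and 0, 0 and 1 counts in WT lungs. For Ighg2c this is 32 counts against 1, a ratio of 31.7 per library size with a 95% interval of 5.30 to 1292 (exact binomial, counting error only). With no filter on low counts, neither Ighg2c nor Ighg3 passed (edgeR adjusted p = 0.262 and 0.315).

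The subclasses peaked in different KO libraries. Ighg2b was highest in KO replicate 1, Ighg1 and Ighg2c in KO replicate 2 and Ighg3 in KO replicate 3. Summed over the 4 genes, IgG stood at 6.05, 7.27 and 4.76 CPM in KO lungs, against 2.13, 3.23 and 2.36 CPM in WT lungs. The Ighg2a gene of Balb/c mice was not analysed and is not among the 4. The summed values did not overlap, while their log2 difference of 1.22 ± 0.36 missed the threshold (edgeR adjusted p = 0.119).

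**Figure D2:**
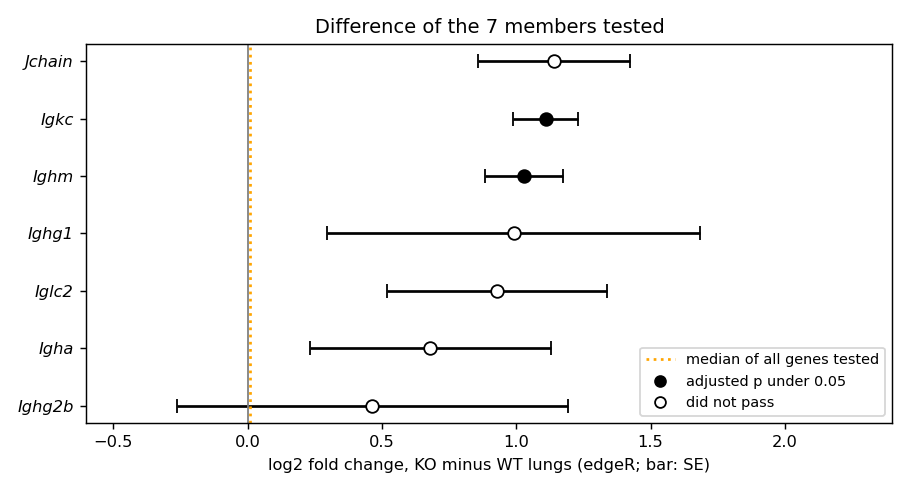
Log2 fold change, KO minus WT lungs, of the 7 members tested, with the SE as a bar; filled points passed the test. Igkc at 1.11 and Ighm at 1.03 passed with the shortest bars, Jchain at 1.14 did not, and the dotted line is the median of all genes tested at 0.01.

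The calls for Igkc and Ighm did not rest on 1 library. Leaving out each of the 6 libraries in turn, Igkc had log2 fold changes of 0.99 to 1.20 (edgeR adjusted p from 0.000168 to 0.0173) and Ighm of 0.89 to 1.18 (adjusted p from 0.00178 to 0.0466). The highest p of Ighm was that without WT replicate 2. Over the same leave-outs the number of genes called higher in all ranged from 22, without WT replicate 2, to 404, without KO replicate 1.

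**Figure D3:**
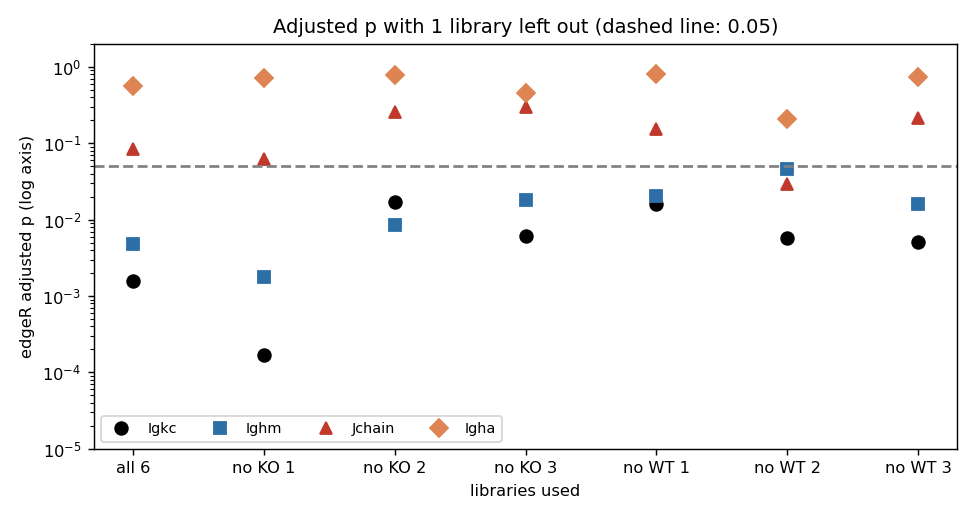
edgeR adjusted p, on a log axis, of 4 members with all 6 libraries and with 1 library left out. Igkc and Ighm stay under the dashed line at 0.05 in every case, Jchain crosses it only without WT replicate 2, and Igha stays above it.

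Among the members, kappa and IgM made up most of the antibody RNA. Per kilobase of the longest annotated coding transcript, levels were 225.8 ± 5.77 CPM per kb in KO lungs and 104.6 ± 14.99 CPM per kb in WT lungs for Igkc, and 96.3 ± 19.4 CPM per kb in KO lungs and 47.2 ± 5.63 CPM per kb in WT lungs for Ighm (SD, n = 3 each). Igha and Jchain followed. Jchain stood at 37.2 ± 7.64 CPM per kb in KO lungs and 16.8 ± 7.65 CPM per kb in WT lungs, and Igha at 33.6 ± 12.5 CPM per kb in KO lungs and 20.9 ± 10.5 CPM per kb in WT lungs. Iglc2 had 12.9 ± 7.60 CPM per kb in KO lungs and 6.75 ± 2.26 CPM per kb in WT lungs. Igkc was highest and Ighm next in each of the 6 libraries, and Iglc2 came after Igha and Jchain in each. The order of Igkc, Ighm and Igha rests on the lengths used. As counts, Ighm exceeded Igkc in each library, and in WT replicate 2 Igha (1425) exceeded Ighm (1216) and Igkc (1058). Igha and Jchain did not differ beyond their spread, with Igha above Jchain in 5 libraries and below it in KO replicate 3. The IgG genes had between 0 and 1.74 CPM per kb in any library, and their order changed between libraries.

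The make-up of the heavy chain reads varied among libraries of the same group. Of the counts on the 6 heavy chain genes, Ighm took 59.5%, 55.1% and 78.0% in KO replicates 1 to 3 and 71.3%, 45.1% and 64.2% in WT replicates 1 to 3. Igha took 38.4%, 41.7% and 20.0% in KO lungs and 27.0%, 52.9% and 33.9% in WT lungs. WT replicate 2 was the 1 library with more Igha than Ighm counts, and KO replicate 3 had the lowest share of Igha. The IgG genes together took 1.93% to 3.14% in KO lungs and 1.68% to 2.04% in WT lungs. In all 3 shares the groups overlapped. Of the light chain counts on Igkc and Iglc2, Iglc2 took 10.03%, 4.78% and 3.37% in KO lungs and 7.10%, 4.68% and 8.86% in WT lungs.

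**Figure D4:**
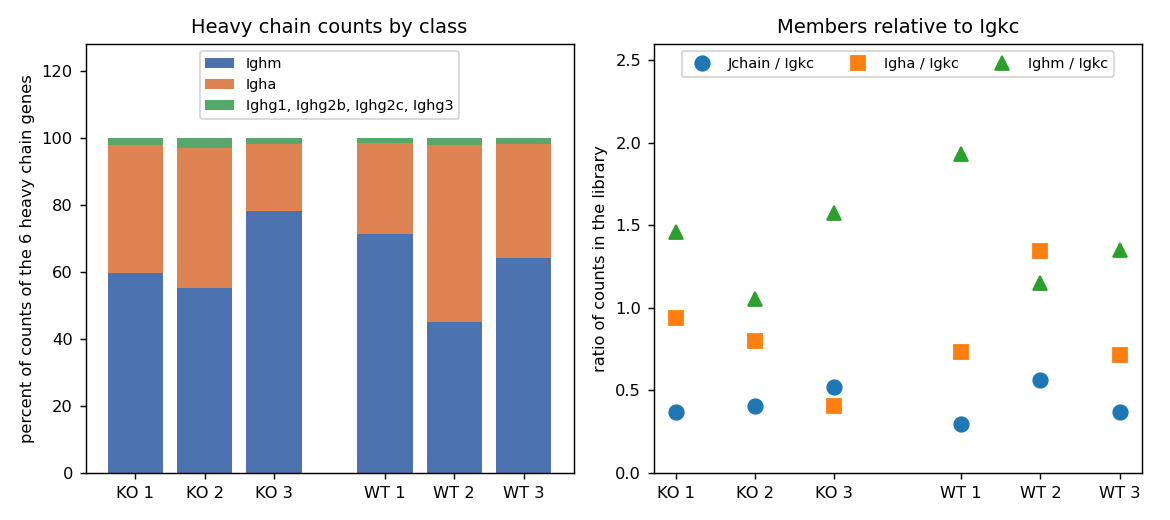
Left, percent of the heavy chain counts on Ighm, Igha and the 4 IgG genes in each library, with KO lungs left of WT lungs. Right, count ratios of Ighm, Igha and Jchain to Igkc; KO and WT libraries overlap for each of the 3 ratios.

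Whether other members moved differently from Igkc was asked with their count ratio to Igkc within a library, in which scaling cancels. The ratio of Jchain to Igkc was 0.369, 0.403 and 0.520 in KO lungs, against 0.297, 0.562 and 0.371 in WT lungs. That of Ighm to Igkc was 1.46, 1.05 and 1.57 in KO lungs, against 1.93, 1.15 and 1.35 in WT lungs. Both ratios overlapped between the groups. As log2 values with 0.5 added, the KO minus WT differences were 0.11 ± 0.31 (SE) for Jchain, -0.10 ± 0.28 for Ighm, -0.40 ± 0.48 for Igha and -0.31 ± 0.57 for Iglc2, with exact two-sided permutation p of 0.8, 0.8, 0.6 and 0.8. Of the 8 ratios, only that of Ighg2c reached 0.1, the smallest p that 3 against 3 allows, and all adjusted p were 0.8. With 1 or 5 added, the groups overlapped for Ighg2c too. A p above the threshold does not show that the genes changed alike.

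A comparison added after seeing the data set Ighm and Igkc against Cd79a, a signalling subunit of the B cell receptor, which had a log2 difference of 0.63 ± 0.20 (edgeR adjusted p = 0.147). There were 2.73, 3.04 and 3.82 Ighm counts per Cd79a count in KO lungs, against 2.02, 2.78 and 2.61 in WT lungs. For Igkc the ratio was 1.87, 2.88 and 2.43 in KO lungs, against 1.05, 2.42 and 1.93 in WT lungs. The groups overlapped in both ratios, and the exact two-sided permutation p were 0.2 for Ighm and 0.4 for Igkc (adjusted 0.9 for both over 9 ratios). As log2 values, the KO minus WT differences were 0.37 ± 0.20 for Ighm and 0.47 ± 0.40 for Igkc. Since 3 against 3 cannot give a p below 0.1, this test does not show that the ratios were unchanged.

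The tested genes outside the immunoglobulin loci with the most similar profiles were ranked by the root mean square difference of centred log2 values over the 6 libraries. Nearest to Igkc were Cmtm7 at 0.071, Zscan10 at 0.105 and Ltb, which encodes lymphotoxin beta, at 0.133. Nearest to Ighm were Pet100 at 0.115, Fcmr at 0.149 and Xaf1 at 0.155. Nearest to Jchain were Slc25a13 at 0.143, Gm15821 at 0.146 and Terb1 at 0.149. Of these, Zscan10, Gm15821 and Terb1 had at most 34 counts in a library.

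Other genes of the antibody pathway were read as lists by role. For comparison, a rise was called for 1.12% of all 15191 genes tested, and 7740 had positive log2 fold changes. Over all genes, 8.29% were higher at an unadjusted edgeR p under 0.05, 2.44% by DESeq2 and 1.01% by limma-voom. Of 18 genes of the B cell receptor complex and B cell identity, 2 rose, and 17 had positive log2 fold changes, with a median of 0.57 (0.47 to 0.63 with 1 library left out). Cd72, a B cell co-receptor, averaged 16.3 ± 2.45 CPM in KO lungs and 5.72 ± 1.83 CPM in WT lungs (SD, n = 3 each; log2 fold change 1.51 ± 0.27, edgeR adjusted p = 0.0168). Cd37, a tetraspanin of B cells, rose by 0.54 ± 0.13 on the log2 scale (edgeR adjusted p = 0.0489), and missed the threshold by limma-voom, with both other scalings and with robust=FALSE. At an unadjusted edgeR p under 0.05 there were 10 of the list, and 5 passed by DESeq2, 8 in edgeR with no filter on low counts and 1 by limma-voom. Leaving out 1 library in turn, 0 or 1 of the list rose. Cd72 passed without KO replicate 1 and without WT replicate 3, Ms4a1, which encodes CD20, without KO replicate 2, and Cd37 in no leave-out. Genes that passed only in a leave-out are named here after their values had been seen.

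No gene of 14 tested on the plasma cell list passed by edgeR. Their median log2 difference was 0.37, and 11 were positive. At an unadjusted p under 0.05 there was 1, and by DESeq2 and limma-voom 0. Slamf7, a surface receptor of plasma cells and cytotoxic cells, had a log2 difference of 0.94 ± 0.40, and Mzb1, a chaperone for IgM assembly, of 0.67 ± 0.34 (edgeR adjusted p = 0.283 and 0.388). Mzb1 stood at 8.01 ± 0.321 CPM in KO lungs and 5.05 ± 2.36 CPM in WT lungs (SD, n = 3 each). The negative differences of the plasma cell list were those of Sdc1, Cd38 and Txndc5. They were -0.02 ± 0.13, -0.02 ± 0.13 and -0.05 ± 0.10 (edgeR adjusted p = 0.957, 0.966 and 0.873). The plasma cell median ranged from 0.15 to 0.47 with 1 library left out, and Tent5c passed without KO replicate 1. In the endoplasmic reticulum list, whose chaperones fold secreted proteins in every cell type, 1 of 14 genes rose and 13 had positive log2 fold changes, with a median of 0.35. That gene was Manf, a stress-induced protein of this compartment, at 79.1 ± 3.71 CPM in KO lungs and 48.7 ± 11.8 CPM in WT lungs (log2 fold change 0.70 ± 0.15, edgeR adjusted p = 0.0432). At an unadjusted edgeR p under 0.05, 9 genes of the endoplasmic reticulum list were higher. By DESeq2 4 passed, by limma-voom 1, and in edgeR with no filter on low counts 4. Leaving out KO replicate 2 or 3 or WT replicate 1 or 2, no gene of that list passed. Manf and the co-chaperone gene Sdf2l1 passed without WT replicate 3, and with them Calr, which encodes calreticulin, without KO replicate 1.

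None of 11 tested genes of class switching and the germinal centre passed by edgeR, DESeq2 or limma-voom, and 1 had an unadjusted p under 0.05. Their median log2 difference was 0.23, ranging from 0.09 to 0.36 with 1 library left out. Msh6, a mismatch repair gene, had 0.48 ± 0.19 and Icos, a co-stimulatory receptor of T cells, 0.49 ± 0.24 (edgeR adjusted p = 0.254 and 0.369). Of 8 tested cytokines and receptors of B cell survival and switching, none passed by edgeR, DESeq2 or limma-voom, 3 had an unadjusted p under 0.05, and the median was 0.53 (0.30 to 0.60 with 1 library left out). Il6, which promotes plasma cell formation, had a log2 difference of 0.62 ± 0.19 and Ifng, which directs switching towards IgG2a in mice, of 2.65 ± 0.99 at 1.77 ± 1.34 CPM in KO lungs and 0.273 ± 0.263 CPM in WT lungs (edgeR adjusted p = 0.127 and 0.220). Without KO replicate 1, and with no filter on low counts, Il6 passed.

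Of 10 tested genes for receptors and transport of immunoglobulins, 3 rose and 9 had positive log2 fold changes, with a median of 0.75 (0.52 to 0.89 with 1 library left out). Fcmr, the receptor for the Fc part of IgM on B cells, had 352, 268 and 502 counts in KO lungs and 160, 135 and 141 counts in WT lungs, and rose by 1.33 ± 0.23 on the log2 scale (edgeR adjusted p = 0.0158). The IgG receptors of myeloid cells Fcgr1 and Fcgr4 had 1.82 ± 0.31 and 1.55 ± 0.32 (edgeR adjusted p = 0.0158 and 0.0416). At an unadjusted edgeR p under 0.05, 9 of the list were higher. By DESeq2 4 passed, by limma-voom 3, and in edgeR with no filter on low counts 7. Leaving out KO replicates 1 to 3 and then WT replicates 1 to 3, this list held 6, 1, 0, 0, 0 and 3 genes that rose, and Fcmr was among them wherever there were any. Pigr, the carrier of polymeric IgA and IgM, was named after its values had been seen. It had 171, 773 and 657 counts in KO lungs and 152, 201 and 180 counts in WT lungs. KO replicate 1 lay among the WT libraries, and a log2 difference of 1.58 ± 0.50 missed the threshold (edgeR adjusted p = 0.213), although Pigr passed without KO replicate 1.

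**Figure D5:**
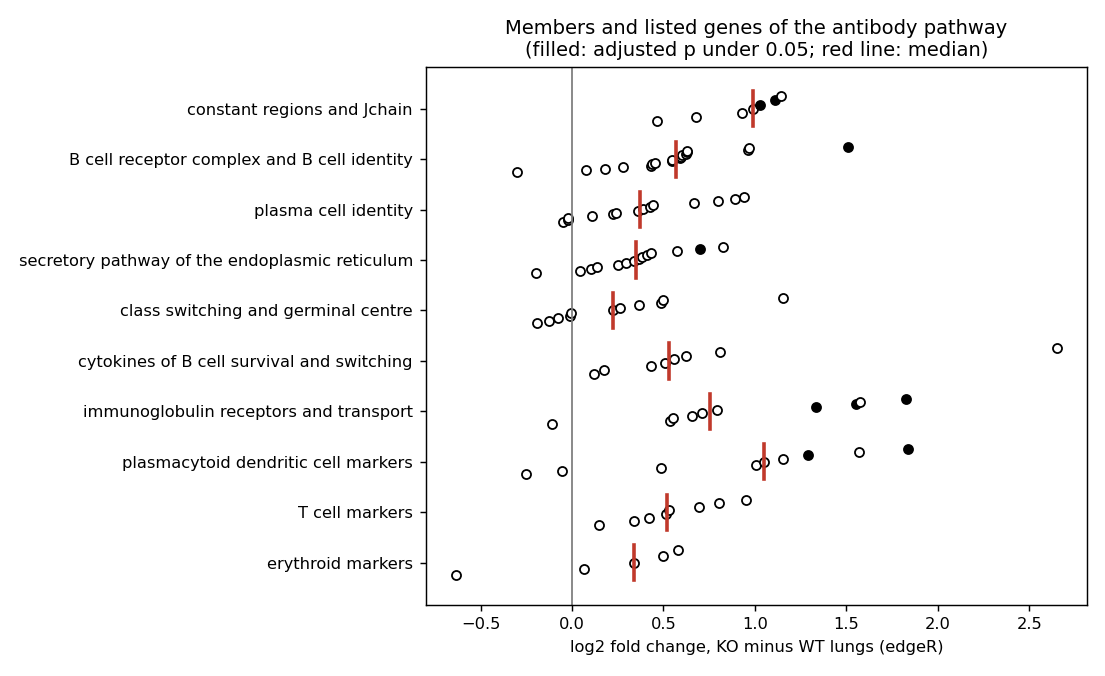
Log2 fold change, KO minus WT lungs, of the 7 tested members and of each tested gene of 9 lists; filled points passed the test and the red line is the median of the list. The members have a median of 0.99, the B cell list of 0.57 and the plasma cell list of 0.37.

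Markers of other cells were read beside these results, and their part in them was not tested. Summed over its genes, none of which was at 0 in any library, the B cell list stood at 806 to 851 CPM in KO lungs and 587 to 706 CPM in WT lungs. The plasma cell list stood at 719 to 824 CPM in KO lungs and 661 to 766 CPM in WT lungs, and Tnfrsf17, the survival receptor of plasma cells, was at 0 in KO replicate 3 and in WT replicates 1 and 3. Of the other immunoglobulin constant genes only Ighe was analysed, with 0 counts in each KO library and 0, 3 and 5 counts in WT replicates 1 to 3, too low for the test. The most abundant genes of these lists are also expressed by other cells: Syk and Lyn made up 41.7% of the B cell sum in KO lungs and 48.6% in WT lungs, and Xbp1 and Txndc5 50.4% of the plasma cell sum in KO lungs and 50.9% in WT lungs. Plasmacytoid dendritic cells also express Jchain. Of their 9 markers, none at 0 in any library, 2 rose and 7 had positive log2 fold changes. The median was 1.05 (0.99 to 1.19 with 1 library left out), and 6 were higher at an unadjusted edgeR p under 0.05. Negative differences were those of Tcf4 at -0.06 ± 0.10 and Cox6a2 at -0.25 ± 0.41 (edgeR adjusted p = 0.861 and 0.841). The markers summed to 435 to 456 CPM in KO lungs and 330 to 339 CPM in WT lungs. Of these sums Tcf4 and Bst2 made up 86.5% in KO lungs and 90.3% in WT lungs. Those that rose were Bst2, which interferon also induces, at 1.29 ± 0.14, and the chemokine receptor gene Ccr9 at 1.84 ± 0.37 (edgeR adjusted p = 0.00157 and 0.0308). Bst2 passed in every leave-out, and Ccr9 only without KO replicate 1, where Siglech passed too. By limma-voom only Bst2 of that list passed, and by DESeq2 Siglech, Ccr9 and Bst2. Of 8 T cell markers none passed by edgeR or limma-voom, 3 passed by DESeq2 and 5 had an unadjusted p under 0.05, with a median of 0.52 and sums of 221 to 309 CPM in KO lungs and 152 to 224 CPM in WT lungs. Cd3g had a log2 difference of 0.80 ± 0.21 and Cd8a of 0.95 ± 0.25 (edgeR adjusted p = 0.0805 and 0.0881). Without KO replicate 1, Cd3g and Thy1 passed. Erythroid genes, which tell of blood left after perfusion, summed to 156 to 333 CPM in KO lungs and 163 to 193 CPM in WT lungs. None of the 5 tested passed by edgeR, DESeq2 or limma-voom or had an unadjusted p under 0.05 in the edgeR fit reported here. Hbb-bs passed in edgeR with no filter on low counts and had an unadjusted p under 0.05 by DESeq2 and limma-voom. The median of the 5 erythroid genes was 0.34 (-0.05 to 0.57 with 1 library left out), and 4 were positive. Hbb-bs had 0.50 ± 0.23 and Hba-a2 0.58 ± 0.56 (edgeR adjusted p = 0.356 and 0.708). Hba-a1 had 0.07 ± 0.23 and Hbb-bt -0.64 ± 1.13 (edgeR adjusted p = 0.936 and 0.856). Lung markers were present in each library, with Sftpc, a surfactant gene, at 7784 ± 1063 CPM in KO lungs and 7846 ± 481 CPM in WT lungs (SD, n = 3 each). None of 7 lung markers passed by edgeR, and their median was -0.01 (-0.11 to 0.04 with 1 library left out). Both Scgb1a1 and Marco were higher by DESeq2, at an unadjusted p under 0.05 and in edgeR without WT replicate 3, and Scgb1a1 was by limma-voom. Marco and Scgb1a1, markers of alveolar macrophages and club cells, had log2 differences of 2.07 ± 0.56 and 2.06 ± 0.50 (edgeR adjusted p = 0.0962 and 0.158).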

How the data were processed

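RNA of whole lungs was sequenced in 6 libraries, 3 from mice injected with PD-L1 KO 4T1 cells and 3 from mice injected with WT 4T1 cells. The deposited values are whole-number read counts per Ensembl gene. Per the series' design text and the submitters' processing notes, the authors' aligner was STAR 2.5, run on read pairs against mm10 (GRCm38), and HTSeq 0.6.1 made the counts. The annotation release, read length, strand setting and counting mode were not given in the sources used here, so reads of overlapping genes cannot be told apart and reads fitting several genes may be lost. No row lacked a gene. Symbols, coordinates and transcripts came from GENCODE M21, and C region starts from RefSeq (GRCm38.p6). The members were matched in the count tables, with 9 of 10 found.

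edgeR 4.0.16 in R 4.3.3 tested KO minus WT by the quasi-likelihood F-test (TMM, filterByExpr with a minimum count of 10, robust=TRUE, group alone), two-sided, with Benjamini-Hochberg adjustment over 15191 genes and a threshold of 0.05. SE is the size of the log2 fold change over the square root of F. Ratios used exact permutation of 20 regroupings. Alternatives were other scalings, no filter, DESeq2 1.42.0, limma-voom (limma 3.58.1), robust=FALSE, leaving out each library and the replicate block. Others were summed IgG genes and scaling without immunoglobulin genes. A planned sum of the lambda genes held only the Iglc2 row. The ratio to Cd79a was chosen after seeing the data.

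The members and lists were chosen with earlier results of these data known. Named were all members, each listed gene that passed, otherwise the 2 of a list with the smallest p, and the 3 genes nearest in profile to Igkc, Ighm and Jchain. Sftpc, Tnfrsf17, Sdc1, Cd38, Txndc5, Pigr, Cd79a, Cox6a2, Hba-a1 and Hbb-bt were named after their values had been seen. So were genes that passed only in an alternative and the most abundant genes of 3 lists. Replicate numbers were not treated as pairs. No libraries were identical (chi-square per degree of freedom 14.7 to 51.8). For KO replicate 1 this value was 16.8 and 27.0 against KO replicates 2 and 3. Against WT replicates 1 to 3 it was 18.9, 26.4 and 17.9, so KO replicate 1 was not closer to each KO library than to the WT libraries. As no label ties a library to an animal, p-values reflect how far these libraries vary, which may be technical.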

Additional observations from a re-analysis of the deposited data

How the results depend on the processing

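The calls for Igkc and Ighm held in each of 14 alternative fits, and no member's called direction reversed. Members called higher numbered 2 in the fit reported, 4 with no filter on low counts, and 2 to 3 with 1 library left out. How many genes were tested with no filter or in the leave-outs is not given here. For those fits the counts over all genes that follow are therefore not shares. Genes called over the whole table numbered 170 higher and 51 lower in that fit, 578 and 225 with no filter, 370 and 230 by DESeq2, and 22 to 404 and 2 to 174 with 1 library left out. Genes of the lists that rose numbered 8, against 31 with no filter, 21 by DESeq2 and 1 to 17 with 1 library left out. The replicate block gave 309 higher, 96 lower and 17 listed genes, and Jchain passed with it (edgeR adjusted p = 0.00756). Same-numbered libraries deviated together only weakly (correlations of 0.044, 0.009 and 0.022), and not each library correlated best with its own number, so the numbers were not taken as pairs. Ratios to Igkc whose groups did not overlap numbered 1 with 0.5 added, 0 with 1 added, 0 with 5 added, 0 when Ighm replaced Igkc, and 1 to 2 with 1 library left out. The cause of these moves was not tested. Depth limits the IgG genes, at most 66 counts each in a library. So does the reference, since Ighg2a, which Balb/c mice carry in the place of Ighg2c, was not analysed.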
